A study of Saccharomyces cerevisiae with 4 samples.

Results

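The 10 genes described here carry ammonium into the budding yeast cell, build it into glutamate and glutamine, or switch that system on, and were followed across 4 expression arrays: the ammonium permease genes MEP1, MEP2 and MEP3, the enzyme genes GDH1, GDH2, GDH3, GLN1 and GLT1, and the regulator genes GLN3 and GAT1. They were chosen by name from the platform annotation, and all 10 were found among 5449 measured S. cerevisiae genes, each through 1 probe set. Yeast can use ammonium as its sole nitrogen source. It enters through the Mep permeases, is fixed onto 2-oxoglutarate as glutamate or onto glutamate as glutamine, and most nitrogen in the cell passes through this pair of amino acids. In nitrogen catabolite repression, good nitrogen sources keep the GATA activators Gln3 and Gat1 out of the nucleus, through Ure2 and the TORC1 kinase, and genes for using poor sources stay low.

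The groups were 2 arrays of the wpl1 deletion (strain Y3501, genotype MATa, wpl1∆::KAN) and 2 arrays of wild type (strain K699, genotype MATa). All were grown to an OD600 of 0.3 in YP medium with 2% glucose and harvested as they grew exponentially. Wpl1 is the yeast relative of Wapl, which releases the cohesin ring from chromosomes, and the comparison asks how transcript levels of cells without it differ from wild type. Each group is 1 strain, and the labels do not say whether its 2 arrays came from separate cultures, and p-values cover no more than the spread between them. Arrays of the same replicate number share a date tag in the descriptions, so a difference between replicates 2 and 1 cannot be told apart from one between those dates. Each replicate number holds 1 deletion array and 1 wild type array, so the spread within a number includes the genotype difference. The p-values by replicate number cover no more than that spread. Values are log2 expression, and differences are on the log2 scale. In these bulk cultures, fewer cells that express a gene and less RNA per cell cannot be told apart.

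The array also carries fission yeast probe sets, and a gene was called above background where it exceeded their 95th percentile, which lay between 5.79 and 6.10 in the 4 arrays. RAD61, the standard name of WPL1, was not above background in either deletion array, with 3.96 and 4.44, and was above it in both wild type arrays, with 6.43 and 6.55, a level at least 1.46-fold lower in deletion cells. The a-cell genes were above background in all arrays (7 of 7), while 2 to 3 of 4 alpha-cell genes were, and STE3, the a-factor receptor of alpha cells, was at or below 4.86 in all arrays. Arrays correlated more closely by replicate number (r = 0.982 in replicate 2 and 0.992 in replicate 1, across genes) than by genotype (0.953 in the deletion and 0.944 in wild type). Deletion replicate 2 stood apart in its chromosome IX genes, whose median difference from wild type was 0.66 in replicate 2 and 0.04 in replicate 1, against -0.11 and 0.04 for the other genes. None of the 10 genes lies on chromosome IX, and the part of that shift in their values was not tested.

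All 10 genes were above background in every array. The difference between deletion and wild type arrays passed the test for 0 of the 10, whereas MEP1, GLN1 and GDH1 were lower in replicate 2 than in replicate 1, as were 19.7% of all genes, and the call of GDH1 ended with genotype as a covariate. The lowest of the 4 values was that of deletion replicate 2 for 7 of the 10 genes, against 39.9% of all genes. That array also had the lowest median over all genes, 8.25, against 8.34 to 8.43 in the others. This count was not taken on centred values. Differences below come with their standard error (SE) from limma, which fits every gene and shrinks the spread of each towards a common value, and adjusted p-values are by Benjamini-Hochberg over all 5449 genes, with a threshold of 0.05.

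**Figure D1:**
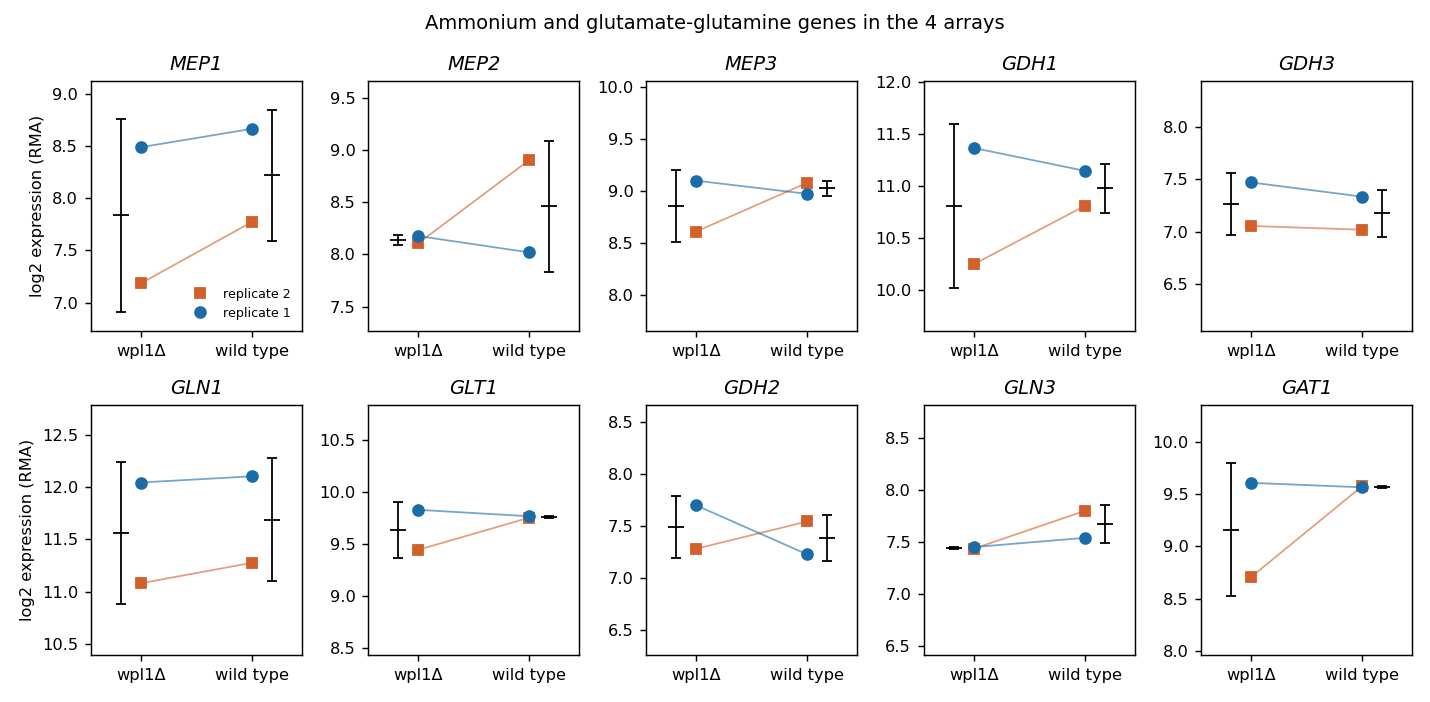
Log2 expression (RMA, vertical axis, spanning the same width in each panel) of the 10 genes in wpl1 deletion and wild type arrays. Squares are replicate 2 and circles replicate 1, lines join arrays of the same number, and bars give the mean ± SD (n = 2). MEP1, GDH1, GDH3, GLN1 and GLT1 separate by replicate number. For GAT1 deletion replicate 2 lies at 8.71 while the other 3 arrays lie between 9.57 and 9.61.

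The 3 ammonium permeases did not move together. MEP1 (YGR121C, chromosome VII), which encodes a permease of lower affinity than Mep2, had 7.18 and 8.49 in deletion replicates 2 and 1, against 7.77 and 8.67 in wild type replicates 2 and 1. Both replicate 2 values lay below both replicate 1 values, and within each number the deletion was lower. Replicate 2 averaged 7.48 ± 0.42 and replicate 1 averaged 8.58 ± 0.12 (SD, n = 2 each, 1 array per genotype). The level was 2.14-fold lower in replicate 2 (difference -1.10, SE 0.21, limma adjusted p = 0.0183). With genotype as a covariate the adjusted p was 0.0261, and without deletion replicate 2 the difference was -0.81 and still passed. The call ended without wild type replicate 1 (adjusted p = 0.0666) and with all probe sets of the array in the fit (adjusted p = 0.0538). By genotype, MEP1 averaged 7.84 ± 0.92 in the deletion and 8.22 ± 0.63 in wild type (SD, n = 2 each), a difference of -0.38 (SE 0.52, and 0.17 with the replicate number as a block) that did not pass in limma with or without the block (adjusted p = 0.996 and 1).

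MEP2 (YNL142W, chromosome XIV) encodes the permease of highest affinity, which is also needed for filamentous growth at low ammonium. It had 8.11 and 8.18 in deletion replicates 2 and 1, against 8.91 and 8.02 in wild type replicates 2 and 1. Wild type replicate 2 was the high array, and the other 3 spanned 0.16. The genotype difference was -0.32 (SE 0.35) and the replicate difference 0.41 (SE 0.26, limma adjusted p = 0.28), and neither passed. Without deletion replicate 2 the replicate difference was 0.81 and passed (limma adjusted p = 0.0185), and without wild type replicate 2 it was 0.01 (adjusted p = 0.962). MEP3 (YPR138C, chromosome XVI), the permease of lowest affinity, had 8.61 and 9.10 in deletion replicates 2 and 1, against 9.08 and 8.97 in wild type replicates 2 and 1. Here deletion replicate 2 was the low array, and neither the genotype difference of -0.17 (SE 0.27) nor the replicate difference of -0.19 (SE 0.18) passed.

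The gap between the permease genes therefore shifted with the replicate number. In replicate 2, set against replicate 1, the log2 value of MEP2 relative to MEP1 was higher by 1.24 in the deletion and by 1.78 in wild type. That of MEP2 relative to MEP3 was higher by 0.42 in the deletion and by 0.78 in wild type. These gaps are differences of change within each genotype, were set side by side after the values had been seen, and were not tested.

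Of the genes for glutamate and glutamine synthesis, GLN1 and GDH1 were lower in replicate 2. GLN1 (YPR035W, chromosome XVI) encodes glutamine synthetase, which adds ammonium to glutamate. It had 11.08 and 12.05 in deletion replicates 2 and 1, against 11.28 and 12.11 in wild type replicates 2 and 1. The replicates did not overlap and the genotypes did. Replicate 2 averaged 11.18 ± 0.14 and replicate 1 averaged 12.08 ± 0.042 (SD, n = 2 each, 1 array per genotype). The level was 1.86-fold lower in replicate 2 (difference -0.90, SE 0.13, limma adjusted p = 0.0117, and 0.027 with genotype as a covariate). The call stood without deletion replicate 2, where the difference was -0.80, and ended without deletion replicate 1 (adjusted p = 0.0519) and without wild type replicate 1 (adjusted p = 0.0564). The genotype difference was -0.13 (SE 0.44, and 0.14 with the replicate block).

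GDH1 (YOR375C, chromosome XV) encodes the main NADP-dependent glutamate dehydrogenase, which makes glutamate from 2-oxoglutarate and ammonium. Its values were 10.25 and 11.37 in deletion replicates 2 and 1, against 10.81 and 11.15 in wild type replicates 2 and 1. Replicate 2 was 1.65-fold lower (difference -0.73, SE 0.21, limma adjusted p = 0.0483). This call was at the edge of the threshold: it ended with genotype as a covariate (adjusted p = 0.0736), with all probe sets in the fit (0.104), with quantile normalization over the S. cerevisiae genes (0.054) and without deletion replicate 2 (0.0778, with the difference at -0.45), deletion replicate 1 (0.188) or wild type replicate 1 (0.0952). The genotype difference was -0.17 (SE 0.41), and its sign differed between the numbers, with -0.56 in replicate 2 and 0.22 in replicate 1.

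GDH3 (YAL062W, chromosome I), the second NADP-dependent isozyme, known to be more prominent on non-fermentable carbon, had 7.05 and 7.47 in deletion replicates 2 and 1, against 7.02 and 7.33 in wild type replicates 2 and 1. The replicates did not overlap, but the difference of -0.37 (SE 0.13) missed the threshold (limma adjusted p = 0.0739). Of the 10 genes, GDH3 alone had a value above 0 for the deletion minus wild type in both numbers, 0.04 in replicate 2 and 0.14 in replicate 1 (genotype difference 0.09, SE 0.27). In the deletion the replicate difference was -1.12 for GDH1 and -0.42 for GDH3, and in wild type it was -0.34 for GDH1 and -0.32 for GDH3. GDH1 and GDH3 are closely related, as are MEP1 and MEP3, and cross-hybridisation of their probes was not examined here.

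GLT1 (YDL171C, chromosome IV) encodes glutamate synthase, which makes glutamate from glutamine and 2-oxoglutarate. It had 9.44 and 9.83 in deletion replicates 2 and 1, against 9.75 and 9.76 in wild type replicates 2 and 1. The wild type arrays differed by -0.01 (replicate 2 minus replicate 1), and deletion replicate 2 lay below the other 3. The genotype difference of -0.12 (SE 0.25) and the replicate difference of -0.20 (SE 0.15) did not pass.

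GDH2 (YDL215C, chromosome IV) works in the other direction: it encodes the NAD-dependent dehydrogenase that releases ammonium from glutamate. Its values were 7.28 and 7.70 in deletion replicates 2 and 1, against 7.54 and 7.23 in wild type replicates 2 and 1. The deletion was lower in replicate 2 (-0.26) and higher in replicate 1 (0.47), and that value lay above the difference of 97.4% of all genes in that replicate. The averaged genotype difference was 0.10 (SE 0.27). The replicate difference of -0.05 (SE 0.20) turned to 0.06 when each array was centred on its gene median, and neither value passed.

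The GATA activator genes differed from each other. GLN3 (YER040W, chromosome V) had 7.44 and 7.45 in deletion replicates 2 and 1, against 7.80 and 7.54 in wild type replicates 2 and 1. Of the 10 genes it alone had genotypes that did not overlap, with both deletion values below both wild type values, which 8.61% of all genes also showed, and 0 of the 10 lay above wild type without overlap, as 5.32% of all genes did. Its mean was 7.44 ± 0.012 in the deletion and 7.67 ± 0.18 in wild type (SD, n = 2 each), and the difference of -0.23 (SE 0.24, and 0.15 with the replicate block) did not pass. GAT1 (YFL021W, chromosome VI), itself a target of Gln3, had 8.71 and 9.61 in deletion replicates 2 and 1, against 9.58 and 9.57 in wild type replicates 2 and 1. Deletion replicate 2 was the low array, with the other 3 spanning 0.04. The genotype difference of -0.41 (SE 0.35, and 0.24 with the block) and the replicate difference of -0.44 (SE 0.28, limma adjusted p = 0.269) did not pass, and the replicate difference was -0.88 and passed without wild type replicate 2 (adjusted p = 0.0166), and was -0.0081 without deletion replicate 2 (adjusted p = 0.965).

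Set side by side by genotype, 8 of the 10 genes had a value below 0 for the deletion minus wild type and 2 a value above 0, with a median of -0.17 against -0.03 over all genes. In limma 0 of the 10 passed and 0 of 5449 genes passed (0.0% in each direction), also with the replicate block. RAD61, the deleted gene, was among those that did not pass (difference -2.29, limma adjusted p = 0.141 with the block). A count of 0 calls therefore does not show that genotype differences are absent. At an unadjusted p under 0.05, 0 of the 10 passed in either fit, and over all genes there were 5 higher and 5 lower without the block and 83 higher and 73 lower with it. The SEs of the 10 genes ran from 0.24 to 0.52 without the block, as they hold the difference between replicate numbers, and from 0.14 to 0.25 with it.

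The genotype difference was split between the replicate numbers. In replicate 2 the deletion lay below wild type for 9 of the 10 genes, all but GDH3, with a median of -0.42, where 65.5% of all genes lay below 0 and their median was -0.10. In replicate 1 it lay below for 3 of the 10, MEP1, GLN1 and GLN3, with a median of 0.09, where 40.1% of all genes lay below 0 and their median was 0.04. The sign was opposite in the 2 numbers for 6 of the 10 genes, MEP2, MEP3, GDH1, GLT1, GDH2 and GAT1, and for 51.8% of all genes. The values of replicate 2 were -0.87 for GAT1, -0.80 for MEP2, -0.59 for MEP1, -0.56 for GDH1 and -0.47 for MEP3, and 0.734%, 1.05%, 3.38%, 4.33% and 7.41% of all genes lay lower still. With each array centred on its gene median, or with quantile normalization over the genes, 9 of 10 stayed below 0 in replicate 2, and GAT1 in replicate 1 was at -0.0037 and -0.01 in place of 0.04, leaving 4 of 10 below 0 there. With 1 array per genotype and number, the difference between the numbers has no test.

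**Figure D2:**
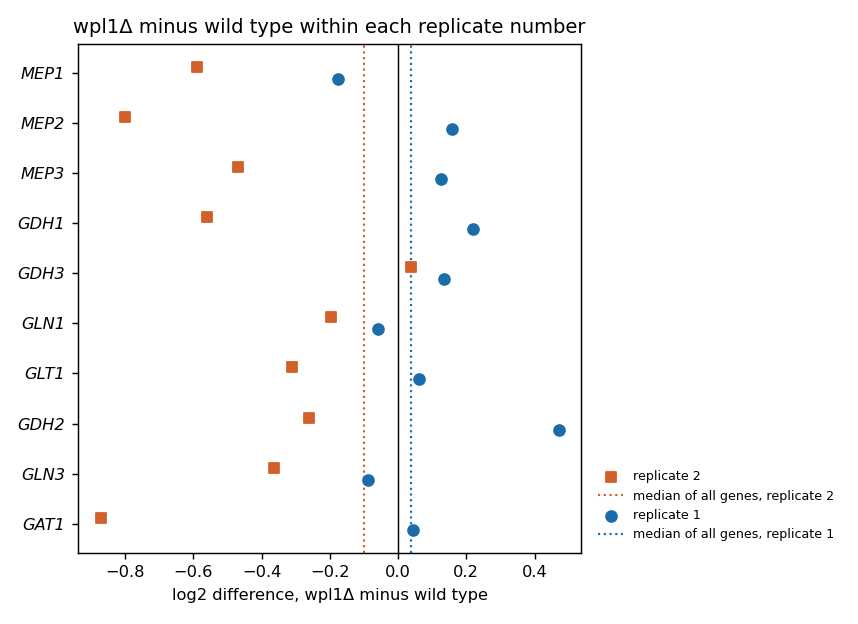
Log2 difference, wpl1 deletion minus wild type (horizontal axis), for each of the 10 genes within replicate 2 (squares) and replicate 1 (circles). Dotted lines mark the median of all 5449 genes, -0.10 in replicate 2 and 0.04 in replicate 1. The squares of 9 genes lie left of 0, from -0.87 for GAT1 to -0.20 for GLN1, while 7 circles lie right of it.

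By replicate number, 3 of the 10 genes, MEP1, GLN1 and GDH1, fell in replicate 2 and 0 rose. In limma over all genes, 19.7% were lower and 8.75% higher, so 3 of 10 lies close to the background. With genotype as a covariate MEP1 and GLN1 passed as lower and 0 as higher, where 13.2% of all genes were lower and 6.15% higher. The replicates did not overlap for 5 of the 10, MEP1, GDH1, GDH3, GLN1 and GLT1, each lower in replicate 2, as were 46.0% of all genes, and none was higher without overlap, as 23.4% were. The median difference of the 10 was -0.28, against -0.13 over all genes. Scaling bore on the balance: higher genes made up 30.8% of the calls on the values as deposited, and 47.9% (761 higher, 827 lower) with each array centred on its gene median. Relative to that median MEP1 had -0.99, GLN1 -0.79 and GDH1 -0.62, and MEP2 and GLN3 had 0.52 and 0.23.

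Within each genotype, the difference of MEP1 was -1.31 in the deletion and -0.89 in wild type. In the same order, that of GLN1 was -0.97 and -0.83, and that of GDH1 was -1.12 and -0.34. GDH3 had -0.42 and -0.32, and GLT1 had -0.38 and -0.01. All of these were lower in replicate 2 in both genotypes. GAT1 had -0.90 in the deletion and 0.01 in wild type, and MEP2 had -0.07 and 0.89. All 10 genes were below 0 in the deletion and 5 of 10 in wild type, against 67.7% and 55.8% of all genes. With each array centred on its gene median these counts were 8 and 4, as MEP2 and GLN3 in the deletion and GLT1 in wild type turned above 0.

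**Figure D3:**
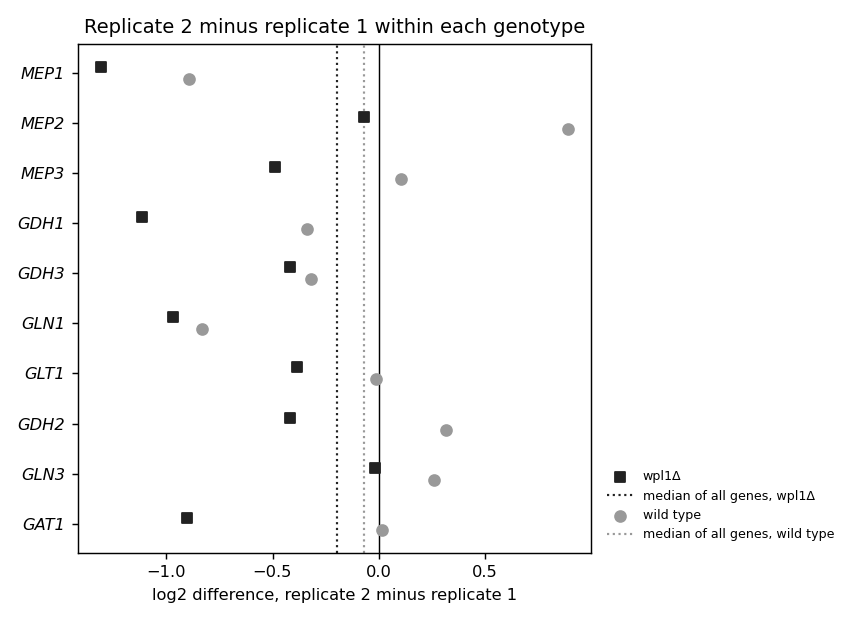
Log2 difference, replicate 2 minus replicate 1 (horizontal axis), for each of the 10 genes in the wpl1 deletion (dark squares) and in wild type (grey circles). Dotted lines mark the medians of all genes, -0.20 in the deletion and -0.07 in wild type. MEP1, GDH1, GDH3 and GLN1 lie left of both medians in both genotypes, while GAT1 and MEP2 lie apart between genotypes.

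MEP1 had the widest range of the 10 over the 4 arrays, 1.48. Likeness was measured as the Euclidean distance between 4 log2 values, each minus the mean of its gene, over the 4 arrays. Among 5038 other genes above background in all arrays, FRE5 (0.120), HPF1 (0.131), YNR075C-A (0.132), ASR1 (0.137) and PLB2 (0.148) were nearest to MEP1, where the median gene was at 1.07. FRE5 is a putative ferric reductase, HPF1 encodes a cell wall mannoprotein and PLB2 a phospholipase B. Of the other 9 of the 10 genes, GLN1 (0.353) and GDH1 (0.468) were nearest to MEP1, and MEP2 was farthest (1.54).

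The 7 lists of genes around this pathway gave 0 calls by genotype in limma. Their medians for the deletion minus wild type ran from -0.29 for putative ammonium export genes to 0.14 for other targets of nitrogen catabolite repression, against -0.03 over all genes. The export list holds 3 genes, of which 1 was above background in all arrays. In that last list, 22 of 26 named genes were measured, 13 above 0 and 9 below, and 6 of the 22 lie on chromosome IX. Without these 6 the median was -0.03, with 7 above 0 and 9 below. Of that list DCG1, of the allantoin gene cluster on chromosome IX, had 6.74 and 6.50 in deletion replicates 2 and 1, against 5.80 and 5.67, both under background, in wild type replicates 2 and 1. On the mean of its arrays, the deletion was at least 1.53-fold higher. That mean includes deletion replicate 2, the array with the chromosome IX shift. DUR3, a urea permease, was above background in wild type replicate 1 alone.

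Read against all genes, of which 65.5% lay below 0 in replicate 2 (median -0.10) and 40.1% in replicate 1 (median 0.04), the lists gave these values by replicate number. GATA repressor and TORC1 genes had a median deletion minus wild type difference of -0.19 in replicate 2 and 0.05 in replicate 1 over 17 genes, with 11 and 3 of them below 0, and the count in replicate 2 was near the share of all genes. NPR2, of the complex that restrains TORC1, had -0.55 in replicate 2 and 0.00 in replicate 1, and IML1, of the same complex, had -0.29 and -0.15. Enzymes that take the amide nitrogen of glutamine had medians of -0.14 and 0.15 over 15 genes, with 12 and 2 below 0. Among these SNO1, of a glutamine amidotransferase for vitamin B6, had -0.88 in replicate 2 and -0.01 in replicate 1, and CPA1, of carbamoyl phosphate synthetase, had -0.59 and 0.31. Of the export genes, ATO2 had -0.59 and 0.00, but its value in deletion replicate 2, 5.90, was under background. ADY2 was above background in wild type replicate 2 alone. Among other activators of glutamate synthesis genes, GCN4 had -0.44 and -0.02, and HAP2, of the Hap complex, had 0.26 and 0.08. Among other makers and users of glutamate, PUT2, of proline breakdown, had 0.22 and 0.13, and GAD1, glutamate decarboxylase, had -0.20 and -0.02.

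Genes that supply 2-oxoglutarate, the carbon skeleton of glutamate, went apart within their list. ACO1, aconitase, had 10.79 and 11.31 in deletion replicates 2 and 1, against 9.65 and 11.20 in wild type replicates 2 and 1. IDH2, of the NAD-dependent isocitrate dehydrogenase, had 9.93 and 10.09 in the deletion, against 8.90 and 10.02 in wild type, in the same order. Wild type replicate 2 was the low array for both, and the deletion minus wild type values in that number were 1.14 for ACO1, 1.03 for IDH2 and 0.63 for IDH1, the partner of Idh2. CIT1, of the same list, had 0.71 in replicate 2 and 0.27 in replicate 1. Its genotypes did not overlap, as for 2 of the 14 genes, both higher, against 5.32% of all genes. The averaged difference of CIT1, 0.49 (SE 0.30), did not pass in limma. Over the whole list of 14 genes the median was -0.02 in replicate 2 and 0.13 in replicate 1, and the averaged differences of 0.63 (SE 0.53) for ACO1 and 0.55 (SE 0.41) for IDH2 did not pass in limma.

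**Figure D4:**
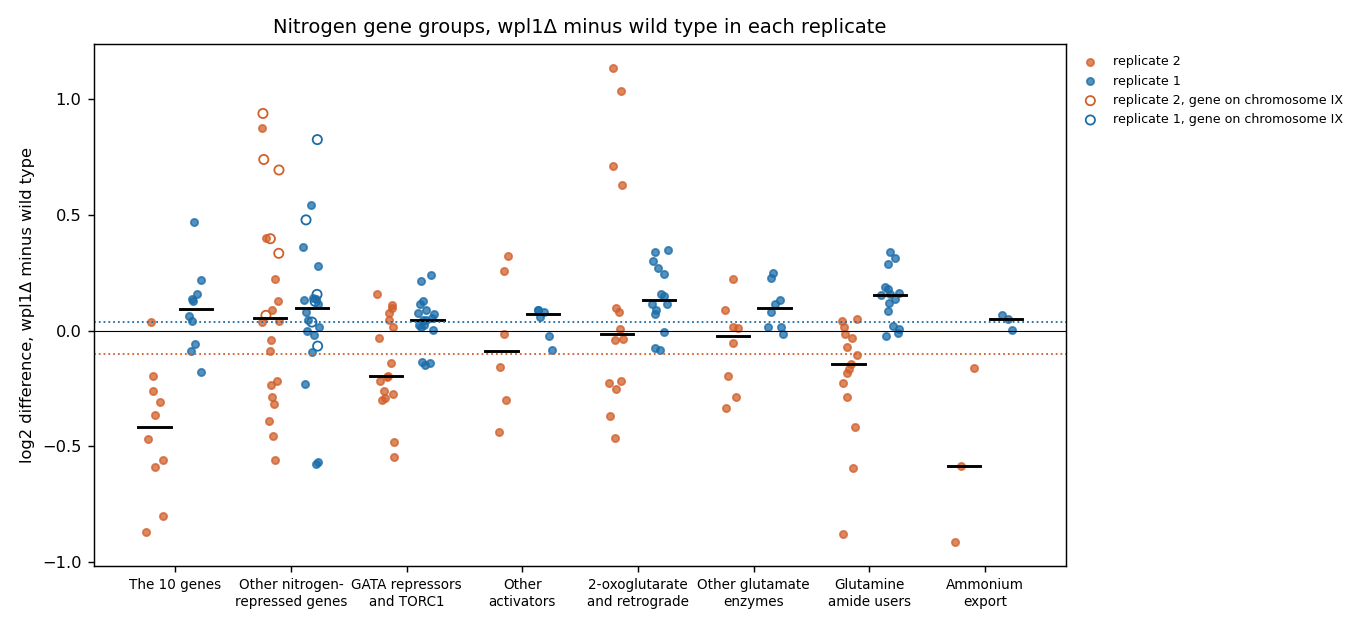
Log2 difference, wpl1 deletion minus wild type (vertical axis), of the 10 genes and of each gene in 7 related lists, within replicate 2 (left column of each pair) and replicate 1 (right column). Open symbols are genes on chromosome IX, black bars are list medians, and dotted lines are the medians of all genes. The median of the 10 genes lies at -0.42 in replicate 2 and 0.09 in replicate 1.

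By replicate number, 4 of 14 genes of 2-oxoglutarate supply and the retrograde pathway were lower in replicate 2 in limma (background 19.7%) and 0 higher, with a median of -0.41. CIT2, the peroxisomal citrate synthase and the usual reporter of the retrograde pathway, had 8.87 and 9.10 in replicate 2, against 10.19 and 10.10 in replicate 1 (deletion then wild type each time), a difference of -1.16 (SE 0.14, limma adjusted p = 0.0104). IDH1 (-1.08, SE 0.23) and DLD3 (-0.64, SE 0.13), a retrograde target, were the others above background in all arrays. IDP3, a peroxisomal isocitrate dehydrogenase, was not above background in replicate 2, and its mean was at least 1.27-fold lower there.

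The counts of the lists that follow stand against 19.7% of all genes lower and 8.75% higher in replicate 2. Among other makers and users of glutamate 3 of 8 were lower, led by GAD1 (-1.51, SE 0.13, limma adjusted p = 0.0074), with UGA1, of GABA breakdown (-0.67, SE 0.13), and PRO1, of proline synthesis (-0.58, SE 0.17), whose call ended with genotype as a covariate (limma adjusted p = 0.0841). Of the other nitrogen-repressed genes, RTS3 (-1.30, SE 0.14), CAR1, arginase (-0.69, SE 0.15), and UGA1 were lower and VID30 (0.63, SE 0.16) higher, out of 22, both counts below the shares of all genes. UGA1, PUT1 and PUT2 are in this list and in that of other makers and users of glutamate, so UGA1 is counted in both. Of 15 users of the glutamine amide, URA8, a CTP synthase (-0.83, SE 0.12), ASN2, asparagine synthetase (-0.57, SE 0.14), HIS7 (-0.52, SE 0.13) and ADE6 (-0.48, SE 0.13) were lower, and with genotype as a covariate 1 of these 4 passed, URA8. CPA1 did not pass, with 0.75 (SE 0.23).

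Of 17 GATA repressor and TORC1 genes, PAR32, an inhibitor of the Mep1 and Mep3 permeases (-0.58, SE 0.13, limma adjusted p = 0.0241), and KOG1, a TORC1 subunit (-0.51, SE 0.15, limma adjusted p = 0.0465), were lower, a count below the 19.7% of all genes. With genotype as a covariate 1 of the 2 passed, PAR32 (adjusted p = 0.0489). Of 6 other activators HAP5 was lower (-0.94, SE 0.12), and HAP2 did not pass (-0.45, SE 0.14). Of 3 export genes, ATO2 (-0.99, SE 0.21), above background in 1 of 2 replicate 2 arrays, and ATO3 (-0.59, SE 0.13) were lower.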

How the data were processed

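The deposited values are log2 expression values. The authors made them with RMA in affy, of unstated version, per the submitters' processing notes. This method equalises array distributions, so differences are relative to other transcripts. Per the labels, double-stranded cDNA was end-labelled, so antisense signal is not told apart. The log2 scale was read from the range of the values, 2.05 to 15.05.

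Of 10928 probe sets, 7244 carried 1 gene symbol, 1 carried several and 3683 none. Gene IDs matched 5498 to 5449 S. cerevisiae genes of NCBI's table for assembly R64, and probe sets of 47 genes were averaged. The other 1746 named probe sets served as the fission yeast background. No coordinates or sequences are given. A gene not above background in any array of a group got a bound, with that group at the background limit. Such a bound compares group means and need not hold for each pair of arrays.

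limma 3.58.1 in R 4.3.3 (lmFit, eBayes, two-sided) was fitted to all genes and 4 arrays without covariates, for genotype and for replicate number. Only the genotype fit was run on simulated data, with a fixed noise level that was not taken from these arrays. Shared date tags in the labels pair the arrays by replicate number, and deviations from group means correlated between same-numbered arrays (r = 0.747 across genes). No 2 arrays of a group were identical. Genes of each list were named by the size of their differences or their calls. The genes and lists were chosen with earlier results of these data known, and list medians are descriptions. Alternatives were a replicate block or genotype covariate, the brightest probe set of a gene, all probe sets, a filter on dim genes, centring, quantile normalization, a trended robust prior, omission of chromosome IX genes, and leaving out each array.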

Additional observations from a re-analysis of the deposited data

How the results depend on the processing

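By genotype, the 8 alternatives that keep all arrays left the sign of all 10 genes as it was and made 0 of them pass, the replicate block included. Leaving out 1 array mixes genotype with replicate number, and the sign then turned in 13 of 40 cases, while 0 of the 10 passed and 0 to 1 higher and 0 to 2 lower genes passed in all. The genotype differences then ran from -1.04 to 0.27 for MEP1, -0.77 to 0.12 for MEP2, -0.42 to 0.074 for MEP3, -0.73 to 0.39 for GDH1, -0.12 to 0.29 for GDH3, -0.61 to 0.36 for GLN1, -0.32 to 0.068 for GLT1, -0.10 to 0.31 for GDH2 and -0.87 to 0.037 for GAT1. GLN3 alone kept its sign, from -0.36 to -0.10, which follows from its genotypes not overlapping and is no separate result. By replicate number, 477 of 5449 genes were higher and 1073 lower. With all 10928 probe sets in the fit, 204 probe sets were higher and 392 lower. These are counts of probe sets, fission yeast and unnamed ones included, and cannot be set against the counts of genes. Higher genes numbered 761 with centred arrays and 762 with quantile normalization. Leaving out 1 array gave 105 to 669 higher and 163 to 1168 lower genes, with 0 to 1 of the 10 higher and 0 to 4 lower. With all probe sets 1 of the 10 was lower, GLN1. The replicate difference of GDH2 turned to 0.056 with centring and 0.10 with quantile normalization; leaving out 1 array it ran from -0.29 to 0.18, that of MEP3 from -0.43 to 0.043 and that of GLN3 from -0.061 to 0.30. Without chromosome IX genes the median of other nitrogen-repressed genes was -0.03 by genotype (0.14 with them) and -0.17 by replicate number (-0.06 with them), and that of a-cell genes was 0.06 by genotype (0.09 with them). Beyond these, the cause of each change was not tested. The 4 arrays limit the precision.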
